A study of Sus scrofa with 16 samples.

Results

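Tissue factor and thrombomodulin, coded by F3 and THBD, were each read by 1 probe set, a group of short probes for the same RNA, out of 23935 probe sets and 6765 named genes tested. Both were found by their gene symbol in the platform annotation, and neither has a further probe set to compare with. They were picked because earlier results on these same arrays had placed F3 among the higher and THBD among the lower transcripts of exercised animals. Their values in the comparison of exercised with sedentary animals are therefore a description, given without a test.

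The arrays held RNA from crushed frozen left ventricle of Yorkshire x Landrace swine aged 2 to 3 months, with 1 array for each of 16 animals. The 8 exercised animals had trained, and tissue came 4 to 5 weeks after the protocol began, as it did for the 8 sedentary animals. Each group held 4 females and 4 neutered males. The kind and amount of exercise and the time from the last bout to sampling are not given in the sources used here.

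Clotting in a vessel wall starts when tissue factor, a membrane protein kept mostly on cells outside the endothelium, meets factor VII from plasma and activates factor X, which leads to thrombin. Thrombomodulin sits on endothelial cells, binds thrombin and turns it from a clotting enzyme into an activator of protein C, which degrades the cofactors that amplify thrombin formation. In the heart, cardiomyocytes, fibroblasts, pericytes and epicardial cells are known to carry tissue factor, and monocytes can be induced to make it.

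Across probe sets, each array had a correlation of 0.988 to 0.994 with the average of the other arrays. As a check of the labelled tissue, the 9 measured cardiomyocyte genes averaged 13.82 ± 0.087 (SD) log2 in the 8 exercised and 13.75 ± 0.058 in the 8 sedentary animals, against a median of 6.24 over all probe sets of an array. The signal of 36 control probe sets for poly-A RNAs of bacterial origin, added before labelling, parted the arrays into 11 with a mean of 8.29 ± 0.39 log2 and 5 with 6.37 ± 0.24. These are called batch A and batch B here, a split that the labels do not name. Batch B held exercised 7 and 8 and sedentary 6, 7 and 8, with 0 exercised females, and the F3 and THBD training differences are also given within batches. For actin, the signal of the 3' probe set less that of the 5' probe set, a measure of RNA length and labelling, was 2.33 ± 0.67 log2 in exercised and 2.22 ± 0.50 in sedentary animals. It parted with the batches, from 2.35 to 2.99 in batch A and from 1.27 to 1.85 in batch B. The same measure for GAPDH was -0.17 ± 0.05 in exercised and -0.18 ± 0.06 in sedentary animals. It overlapped between the batches, from -0.28 to -0.11 in batch A and from -0.21 to -0.10 in batch B.

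F3, the starter of the pathway, was higher in exercised hearts. In exercised animals 1 to 8 its log2 signal was 8.06, 7.91, 6.77, 7.22, 8.32, 8.76, 8.59 and 8.26. In sedentary animals 1 to 8 it was 6.93, 6.49, 6.11, 6.92, 7.65, 7.98, 6.01 and 7.13. The highest 5 exercised animals lay above all 8 sedentary animals, the lowest 3 sedentary animals lay below all 8 exercised animals, and the rest of the groups overlapped. Exercised 3, at 6.77, was the only exercised animal under the sedentary mean, and sedentary 6, at 7.98, stood above exercised 2, 3 and 4. The group means were 7.99 ± 0.68 and 6.90 ± 0.69 (SD, n = 8 each), a difference of 1.08 log2 (SE 0.328) or 2.12-fold. Among the 6765 genes, each taken at its brightest probe set, this was the rise ranked 2 by size. For that contrast 13.4% of all probe sets passed the limma test. Of those above the 60th percentile of mean signal, where F3 and THBD lay, 4.69% passed. Both shares are given for scale only.

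THBD, the endothelial brake, was lower in exercised hearts. In exercised animals 1 to 8 its log2 signal was 7.31, 7.60, 7.47, 7.31, 6.79, 7.28, 7.60 and 7.63. In sedentary animals 1 to 8 it was 7.55, 8.04, 7.84, 8.73, 8.31, 8.01, 8.68 and 8.34. All 8 exercised animals lay below the sedentary mean, and 7 of the 8 sedentary animals lay above every exercised animal. The exception was sedentary 1, at 7.55, which fell among the exercised animals and below exercised 2, 7 and 8. The means were 7.37 ± 0.28 and 8.19 ± 0.41 (SD, n = 8 each), a difference of -0.82 log2 (SE 0.170), so the exercised mean was 1.76-fold lower. It ranked 14 by size among the falls of the 6765 genes. In bulk ventricle, fewer cells of a type and less RNA per cell cannot be told apart. For both genes some animals of one group lay within the range of the other, as they did for all but 3.12% of the probe sets tested.

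**Figure D1:**
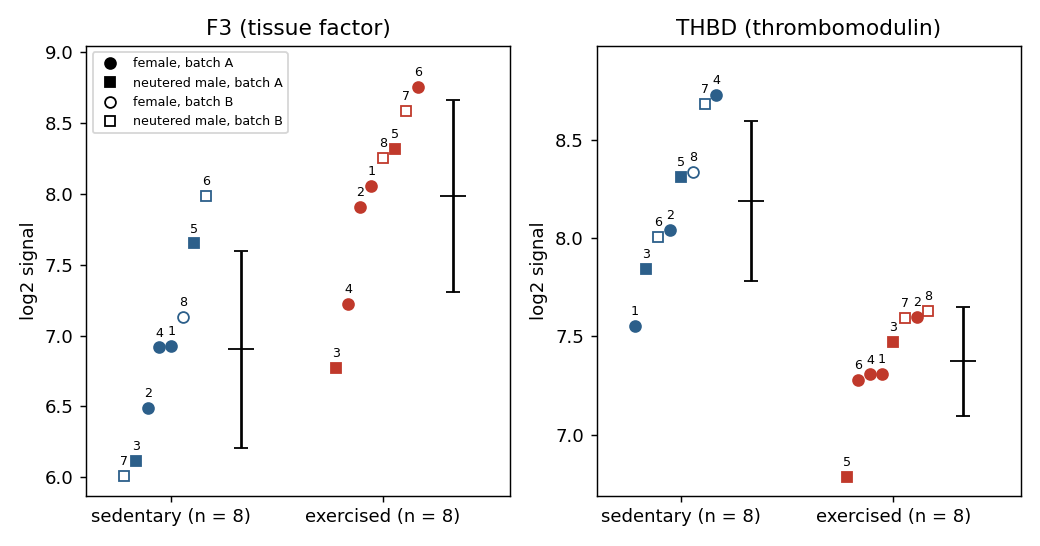
Log2 signal of F3 (left) and THBD (right) in each of 16 pigs, with the animal number beside each point, circles for females, squares for neutered males, filled for batch A and open for batch B; bars give the group mean ± SD (n = 8). F3 was 7.99 in exercised against 6.90 in sedentary animals with overlap, and THBD was 7.37 against 8.19 with sedentary 1 the only sedentary animal inside the exercised range.

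The genes differed in how much animals of the same kind varied. After the mean of each training and sex combination was removed, the residual SD of F3 was 0.741 log2, at the 99.3 percentile of all probe sets, and that of THBD was 0.375, at the 90.9 percentile. The F3 signal spanned 1.99 log2, or 3.97-fold, among exercised animals and 1.98 log2, or 3.94-fold, among sedentary animals. THBD spanned 0.84 log2 among exercised and 1.18 among sedentary animals. The span of F3 within either group was thus wider than its difference between the group means, while the THBD difference was close to its span among exercised animals. By mean signal over the 16 arrays the F3 probe set lay at the 68.7 percentile and the THBD probe set at the 73.9 percentile, so neither was among the dim probe sets.

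The differences had the same direction in both sexes. F3 was 7.99 ± 0.63 in 4 exercised and 6.87 ± 0.27 in 4 sedentary females, a difference of 1.12 log2, and 7.98 ± 0.82 and 6.94 ± 1.02 in the males, a difference of 1.05. The males of batch A differed by 0.66 and those of batch B by 1.43, with 2 animals of each group in each, and the females of batch A by 1.21. Sedentary males held both the lowest sedentary F3 values, in animals 3 and 7, and the highest, in animals 5 and 6. THBD was 7.37 ± 0.15 and 8.17 ± 0.50 in females, a difference of -0.79, and 7.37 ± 0.39 and 8.21 ± 0.37 in males, a difference of -0.84. In batch A it was -0.73 in females and -0.95 in males, and in males of batch B it was -0.73. Whether the training difference itself differed between the sexes is a contrast that the choice of these genes did not use, and it was tested by limma across all probe sets. The female minus male difference was 0.076 log2 for F3 (95% interval -1.32 to 1.47, adjusted p = 1) and 0.048 for THBD (-0.67 to 0.77, adjusted p = 1). In batch A alone it was 0.55 for F3 and 0.21 for THBD (limma adjusted p = 0.992 for both). Neither passed, but the intervals are wide and do not show that the sexes responded alike. Of all 23935 probe sets limma called 0 for this contrast (0%), with 621 at an unadjusted p under 0.05.

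Females and neutered males did not differ detectably in the level of either gene. Averaged over training, the female minus male difference was -0.034 log2 for F3 (95% interval -0.73 to 0.66, adjusted p = 0.976, limma, n = 8 of each sex) and -0.021 for THBD (-0.38 to 0.34, adjusted p = 0.972). Thus 0 of these 2 probe sets passed, where 22 of all 23935 did (0.0919%). With batch as a block these values turned to 0.14 for F3 and 0.10 for THBD, also without passing (adjusted p = 0.991 and 0.987).

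Within batches the training differences kept their direction. For F3 the plain difference of group means was 1.02 log2 in batch A, with 6 exercised and 5 sedentary animals, and 1.38 in batch B, with 2 and 3. For THBD the batch A value was -0.80 and the batch B value -0.73. In batch B both exercised males had F3 values above all 3 sedentary animals and THBD values below all 3. With batch as a block in the fit the difference was 1.14 log2 (SE 0.321) for F3 and -0.77 (SE 0.158) for THBD. The batch term, which the choice of the genes did not use, was 0.46 log2 (batch B minus A, SE 0.383, limma adjusted p = 0.429) for F3 and 0.33 (SE 0.188, limma adjusted p = 0.223) for THBD. Neither passed, while 23.4% of all probe sets did for that term. When 1 animal at a time was left out, the F3 difference ran from 0.93, without sedentary 7, to 1.29, without exercised 3. The THBD difference ran from -0.92, without sedentary 1, to -0.72, without exercised 5.

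**Figure D2:**
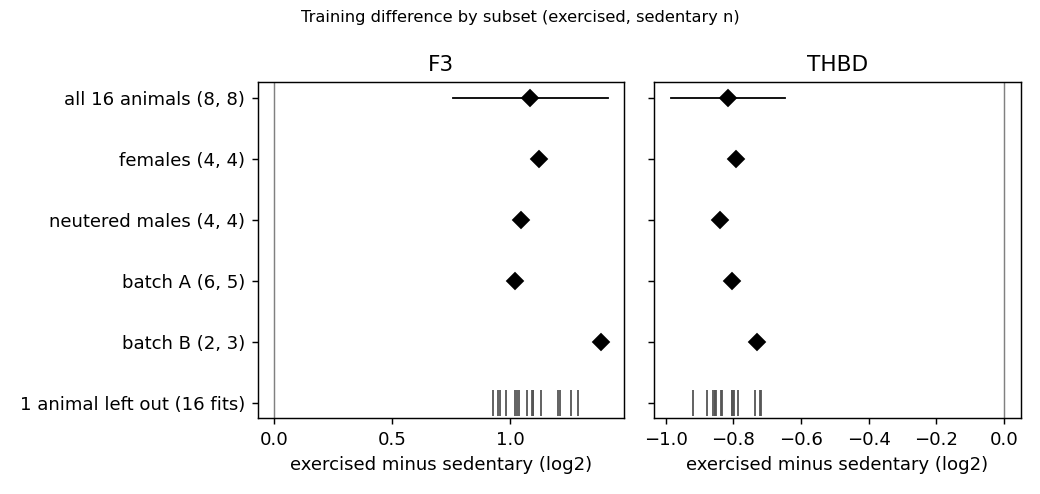
Exercised minus sedentary difference (log2) of F3 and THBD in all 16 animals (line: SE from the fit), in each sex, in each batch, and in the 16 fits that leave out 1 animal each (ticks); the numbers of exercised and sedentary animals stand in brackets. All F3 values lie above 0, with 1.02 (batch A) and 1.38 (batch B), and all THBD values lie below 0, with -0.80 and -0.73.

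Since the genes differed in opposite directions, each animal's balance was taken as its F3 deviation minus its THBD deviation, both from the mean over 16 arrays. The balance had a median of 1.02 log2 in exercised animals, from -0.37 in exercised 3 to 1.87 in exercised 5. In sedentary animals the median was -1.04, from -2.34 in sedentary 7 to 0.31 in sedentary 6. It was above every sedentary animal in 6 of 8 exercised animals, and 5 of 8 sedentary animals lay below every exercised animal. The means, 0.95 ± 0.76 and -0.95 ± 0.84 (SD, n = 8 each), differed by 1.90 log2. That direction follows from the choice of the genes and is no separate result.

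Whether the animal with more F3 was also the one with less THBD was asked within each group, which the choice of the genes did not use. Among exercised animals Pearson's r was -0.122 (exact permutation p = 0.766, adjusted 0.812 over 2 relations, two-sided, n = 8) and Spearman's rho was -0.238 (exact permutation p = 0.582, adjusted 0.703). Among sedentary animals r was -0.097 (exact permutation p = 0.812, adjusted 0.812) and rho -0.167 (exact permutation p = 0.703, adjusted 0.703). Without the 2 animals farthest from the median of F3, r was -0.146 in exercised animals (exact permutation p = 0.803) and 0.401 in sedentary animals (exact permutation p = 0.432). Within batch A, r was -0.429 over 6 exercised animals, and none was computed over the 5 sedentary animals of batch A, since correlations were taken over at least 6 animals. No relation between the levels of these genes was detected among animals of 1 group. With n = 8 in each group, this does not show that the levels were unrelated.

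**Figure D3:**
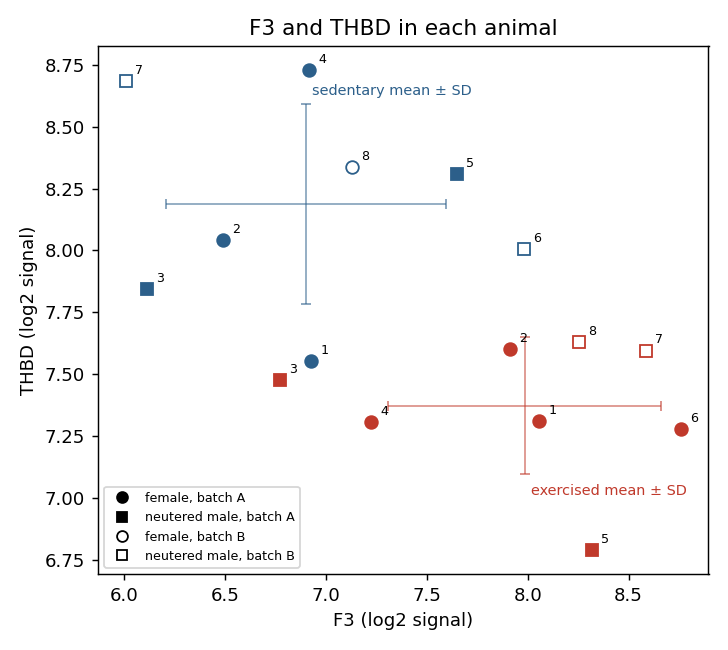
THBD against F3 (log2 signal) in each pig, red for exercised and blue for sedentary, with symbols for sex and batch and crosses at the group means ± SD (n = 8). The groups part along a diagonal, exercised animals to the lower right, while r within the groups was -0.122 (exercised) and -0.097 (sedentary).

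The genes whose pattern was most like F3 or THBD were sought over the 16 residuals from the training and sex means, with 1 probe set for each of 6764 other genes. These r values are a description over arrays that share their batch, and the highest of so many will be high. For F3 they were RASL11B, a RAS-like small GTPase (0.901), the kinase gene TAOK3 (0.856), MAP1B, a microtubule-associated protein (0.827), the chromatin remodelling ATPase gene SMARCA4 (0.815) and RGS14, a regulator of G protein signalling (0.804). With batch as a block these r were 0.892, 0.843, 0.809, 0.814 and 0.784, with ranks of 1, 2, 5, 4 and 10. RASL11B itself differed by 0.29 log2 between exercised and sedentary animals and did not pass (limma adjusted p = 0.306). Among these 5 genes only RGS14 passed, lower by 0.19 on average (log2 -0.19, limma adjusted p = 0.0423). For THBD the nearest genes were HSD17B2, a steroid dehydrogenase (0.84), MESDC2, an endoplasmic reticulum chaperone (0.793), ASS1, an enzyme of arginine synthesis (0.79), the cytokine gene IL16 (0.762) and ALDH18A1, an enzyme of proline synthesis (0.759). With batch as a block their r fell to between 0.693 and 0.822, and their ranks, in that order, to 5, 24, 18, 43 and 51. None of the 5 passed for training, with limma adjusted p from 0.354 to 0.767. HSD17B2 and, among the genes near F3, MAP1B were dim, with means of 4.05 and 5.03 log2. The residuals of F3 and THBD themselves had an r of -0.108.

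The other genes of coagulation were read from lists of 52 genes, of which 33 could be matched by a single symbol and the others were not analysed here. Of these 33, 2 rose, 1 fell and 30 did not pass the limma test for training at an adjusted p of 0.05. The median difference was -0.0038 log2. That share, 9.09%, was near the 10.0% called over all 6765 genes (5.11% higher and 4.91% lower), whose median difference was 0.013. Among 11 procoagulant genes FGG, which codes for the gamma chain of fibrinogen, rose to 4.45 ± 0.15 from 3.96 ± 0.15 (log2 0.49, SE 0.0829, n = 8 each, limma adjusted p = 0.00123). The other FGG probe set differed by 0.084 without passing (limma adjusted p = 0.487), and the average of both by 0.29 (limma adjusted p = 0.00748). F12, the contact factor that starts the intrinsic route, fell to 3.73 ± 0.15 from 4.05 ± 0.11 (log2 -0.32, SE 0.0653, limma adjusted p = 0.00433). In both cases the 8 exercised animals were all past the sedentary mean in that direction. The median over these 11 genes was -0.0038. VWF, the endothelial carrier of factor VIII, was 8.92 and 8.93 (adjusted p = 0.991).

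Of 8 fibrinolysis genes PLG, the precursor of the clot-dissolving enzyme plasmin, rose to 5.33 ± 0.13 from 4.90 ± 0.12 (log2 0.43, SE 0.0692, n = 8 each, limma adjusted p = 0.000875, all 8 exercised animals above the sedentary mean). The other 7 did not pass, and the median over the 8 was -0.10. The plasminogen activator genes PLAT and PLAU, named for their role outside the rule for named genes, differed by -0.17 and 0.33 without passing (limma adjusted p = 0.591 and 0.285). For PLAT the batch A difference was -0.40 and the batch B difference 0.28, and for PLAU they were -0.021 and 1.03. FGG, F12 and PLG are genes mainly of liver, and their probe sets were dim here, at the 19.3, 13.4 and 33.5 percentiles of mean signal.

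None of the 12 anticoagulant and protein C genes passed, where 10.0% of all 6765 genes were called. Their differences ran from -0.27 for A2M to 0.19 for SERPIND1, with a median of 0.031. SERPIND1 and SERPINA5, both protease inhibitors, had the smallest p, with differences of 0.19 and 0.18 that did not pass (limma adjusted p = 0.13 and 0.197). SERPIND1 passed without exercised 2, at 0.24 (limma adjusted p = 0.0419). The other probe set of SERPIND1 was at 0.040 and that of SERPINA5 at -0.11, also without passing. Direct partners of the pair, named for their role outside that rule, did not pass either. TFPI, the inhibitor of the tissue factor complex, was 4.70 ± 0.12 and 4.80 ± 0.20 (limma adjusted p = 0.498). PROCR, the endothelial receptor that presents protein C to thrombomodulin, was 7.51 ± 0.40 and 7.32 ± 0.43 (limma adjusted p = 0.591). PROC, the substrate itself, was 5.18 and 5.17 (limma adjusted p = 0.94). The probe sets of TFPI, PROC, SERPIND1 and SERPINA5 were dim, at the 28.2, 34.4, 33.7 and 15.2 percentiles of mean signal. The thrombin receptor gene F2R was 9.66 ± 0.38 and 9.64 ± 0.40, and F2RL2, a related receptor, differed by -0.29 without passing (limma adjusted p = 0.243), and by -0.51 (batch A) and 0.10 (batch B) when parted. Of 5 genes for tissue factor activity and trafficking none passed, with ANO6, a scramblase that exposes procoagulant lipid, at -0.19 and the disulfide isomerase gene PDIA3 at 0.16.

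Factors known to act on the F3 or THBD promoter had 0 higher, 2 lower and 9 not passing among 11 measured, with a median of -0.26 log2. For scale, for these and the stimuli below, 10.0% of all 6765 genes were called, 5.11% higher and 4.91% lower. KLF4, an endothelial factor that raises THBD, fell to 8.09 ± 0.22 from 8.74 ± 0.27 (log2 -0.64, SE 0.0994, n = 8 each, limma adjusted p = 0.00063). KLF2, its shear-induced relative, fell by 0.29 on a dim probe set, to 4.76 ± 0.078 from 5.05 ± 0.13 (limma adjusted p = 0.00601), but did not pass in batch A alone (-0.23, adjusted p = 0.0833). Both lay below the sedentary mean in all 8 exercised animals. Of 15 genes for stimuli that act on F3 or THBD, 1 rose, 1 fell and 13 did not pass, with a median of -0.089. TNF, a cytokine that induces tissue factor and lowers thrombomodulin, rose to 6.03 ± 0.17 from 5.48 ± 0.17 (log2 0.55, SE 0.0779, limma adjusted p = 0.000356). EDN1, the vasoconstrictor endothelin, fell to 5.50 ± 0.17 from 6.08 ± 0.43 (log2 -0.58, SE 0.15, limma adjusted p = 0.018). The TNF and EDN1 changes both had all 8 exercised animals on 1 side of the sedentary mean. In the same lists FOS (-0.95), EGR1 (-0.89), JUN (-0.36) and IL1B (-0.44) were lower without passing (limma adjusted p = 0.352, 0.255, 0.308 and 0.0876). Of the 11 factors 4 lay above 0, and of the 15 stimuli 4 did. Whether any of these genes acted on F3 or THBD here was not tested.

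THBD is a gene of endothelium, so the 15 measured endothelial markers are given beside it. None passed for training, where 10.0% of all 6765 genes were called, and their median was -0.046. Their mean level was 8.23 ± 0.17 log2 (7.95 to 8.42) in exercised and 8.27 ± 0.11 (8.13 to 8.40) in sedentary animals. Measured relative to that level in each animal, the THBD difference was -0.77 log2, with SDs of 0.171 and 0.372. Since the list level differed by only -0.041 log2, this largely restates the difference for which THBD was chosen. Whether the number of endothelial cells differed was not tested. FLT1 and PECAM1, both endothelial surface genes, had the smallest p, with differences of -0.39 and -0.19 that did not pass (limma adjusted p = 0.0609 and 0.287). FLT1 passed at -0.45 without exercised 2, at -0.47 without exercised 8 and at -0.45 without sedentary 6, and also with array weights (-0.41, limma adjusted p = 0.0358) and with the replicate block (-0.39, limma adjusted p = 0.0267). PECAM1 passed at -0.29 without sedentary 8 and at -0.40 in batch A. The plain differences in batches A and B were -0.55 and -0.0063 for FLT1 and -0.38 and 0.10 for PECAM1. EGFL7, an endothelial secreted factor named after its values were seen, went the other way, at 0.23 without passing (limma adjusted p = 0.534). It passed with batch as a block, at 0.35 (limma adjusted p = 0.00659), and in batch A alone.

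F3 can come from cardiomyocytes, monocytes, epicardium, fibroblasts and mural cells, and those markers stand beside it. Of 10 monocyte and macrophage markers ITGAM and S100A8 rose by 0.54 and 0.49 (limma adjusted p = 0.00399 and 0.0009) on dim probe sets. The other 8 did not pass, where 10.0% of all genes were called. The other ITGAM probe set was at 0.049 (limma adjusted p = 0.8), and the average of both at 0.30 (limma adjusted p = 0.0141). The list median was 0.20, with 7 of 10 genes above 0. The other 3, CD14 (-0.29), S100A9 (-0.45) and CD163 (-0.24), were lower without passing (limma adjusted p = 0.141, 0.576 and 0.611). AIF1, a macrophage gene at the 80th percentile of signal named after its values were seen, differed by 0.43 just short of the threshold (limma adjusted p = 0.0508). AIF1 passed with batch as a block (0.42, limma adjusted p = 0.0489), trended eBayes, array weights, the replicate block or no sex term, and without exercised 5, exercised 6 or sedentary 1. The list's mean level overlapped between the groups, at 7.43 ± 0.20 log2 (7.13 to 7.73) in exercised and 7.31 ± 0.33 (6.93 to 7.98) in sedentary animals, and relative to it F3 differed by 0.97. Among 5 epicardial, 6 fibroblast and 5 mural markers none passed. The smallest p were those of TCF21 at -0.32 and KRT18 at -0.089, of COL3A1 at -0.25 and DCN at -0.14, and of PDGFRB at 0.16 and CNN1 at -0.43. Relative to these lists F3 differed by 1.17, 1.20 and 1.13 log2. Such relative values largely restate the difference for which F3 was chosen, and the cell source of F3 was not tested. The mean levels in exercised and sedentary animals were 5.94 and 6.03 for the epicardial, 10.16 and 10.28 for the fibroblast and 10.33 and 10.38 for the mural list. Of 5 platelet markers PPBP rose by 0.25 (limma adjusted p = 0.0391) and ITGB3 fell by 0.28 (limma adjusted p = 0.0205), both on dim probe sets. PPBP lost its call without any 1 of 8 animals, exercised 4, 6, 7 or 8 or sedentary 3, 4, 7 or 8 (0.21 to 0.24), in batch A (0.15) and with the replicate block (0.25, limma adjusted p = 0.0839). None of the 9 cardiomyocyte markers passed, with RYR2 at 0.36 and TTN at 0.18, and relative to this list F3 differed by 1.01. In exercised animals MYH7, TNNI3, MYL2 and MYL3 averaged 14.53, 14.53, 14.62 and 14.32 log2, close to the highest deposited value, 14.86. Whether cardiomyocyte content differed was not tested. Of the other RYR2 probe sets a dim one passed at 0.41 (limma adjusted p = 0.0132) and one was at -0.042 (limma adjusted p = 0.881). COL3A1, RYR2 and TCF21 passed without exercised 8, at -0.31, 0.44 and -0.43, RYR2 also with batch as a block, at 0.31, and RYR2 and TCF21 with the replicate block (limma adjusted p = 0.0366 and 0.0308).

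Over all lists 11 of 118 measured genes passed, 6 higher and 5 lower, or 9.32% against 10.0% of all genes, and 22 had an unadjusted p under 0.05. Of the 11, 8 had a mean signal no higher than the 40th percentile, 5.57 log2, where 63.4% of all called probe sets lay. KLF4, TNF and EDN1 lay above it, but TNF and EDN1 only through their higher group. In the other group their means were below it, at 5.48 for TNF in sedentary and 5.50 for EDN1 in exercised animals. Among the listed genes no training difference reached the size of the F3 difference in either direction, and FOS (-0.95) and EGR1 (-0.89), which did not pass, were larger than that of THBD. Their batches went opposite ways, with -1.59 (A) and 0.85 (B) for FOS and -1.41 and 0.72 for EGR1, and EGR1 passed in batch A alone and without exercised 7.

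**Figure D4:**
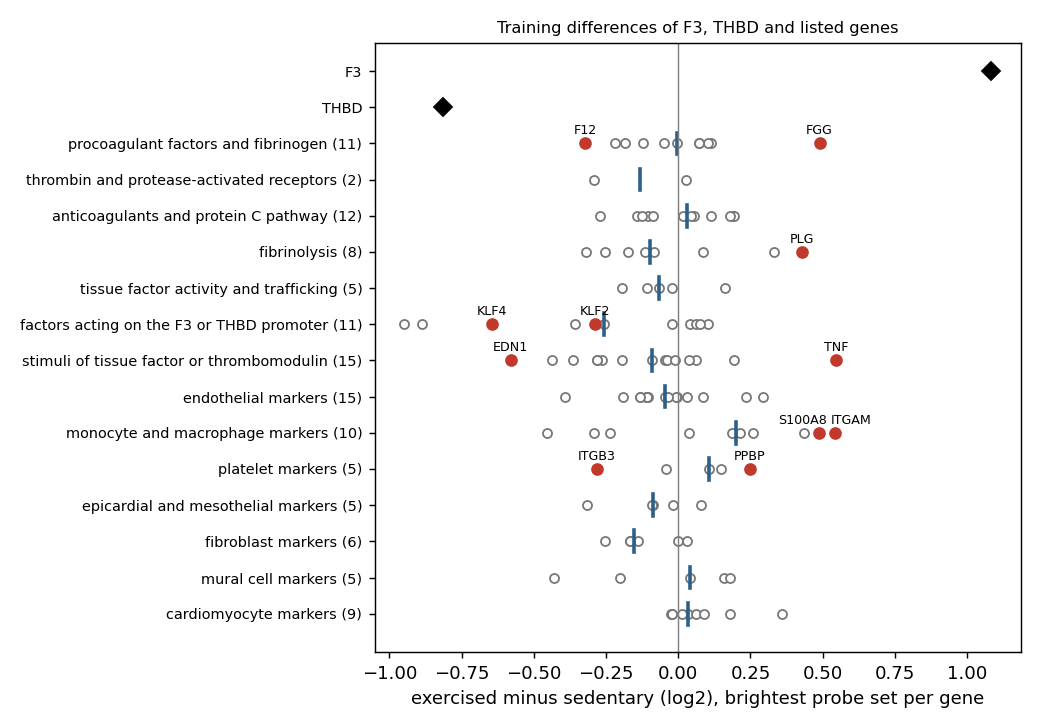
Exercised minus sedentary difference (log2) of F3 and THBD (black diamonds, no test) and of each listed gene at its brightest probe set; red points passed limma at an adjusted p of 0.05, open points did not, blue bars are list medians, and the number of measured genes stands in brackets. The 33 genes of the first 4 lists lie between -0.32 and 0.49, inside the differences of THBD (-0.82) and F3 (1.08).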

How the data were processed

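Biotinylated cRNA was made by the Affymetrix protocol, per the labels' protocols, and read on 1 porcine array per animal. The log2 signal of each probe set was used as the authors deposited it. The scale was read from the values (2.87 to 14.86, with matching distributions), and the summarisation and normalization are not given in the sources used here. Nothing was normalized again, and the number of arrays sets the precision. Of 24123 probe sets, 188 controls were left out. Symbols came from the platform annotation, which gave 1 symbol to 10069 probe sets, several to 198 (not named) and none to 13668. RefSeq (Sscrofa11.1) matched 9989 of 10297 entries and changed 0 symbols.

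With limma 3.58.1 (R 4.3.3; lmFit, eBayes), all 16 arrays were fitted with a mean per training and sex combination, which left 12 residual and added 3.50 prior degrees of freedom. The two-sided p-values were adjusted by Benjamini-Hochberg across the 23935 probe sets. Correlations used exact permutation over pairings (Python 3.11.15). Fits were tested on simulated data.

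The genes, lists and tests were chosen with earlier results of these data known. Named are the called genes of each list at the brightest probe set, otherwise the 2 with the smallest p, and the 5 nearest patterns. A2M, VWF, TFPI, PROCR, PROC, PLAT, PLAU, FOS, EGR1, JUN, IL1B, AIF1, CD14, S100A9, CD163 and EGFL7 were added with their values known. Alternatives were other normalizations, filters at the 40th and 60th percentiles, eBayes settings, array weights, blocks for replicate number and batch, batch A alone, no sex term, averaged probe sets and leaving out each animal.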

Additional observations from a re-analysis of the deposited data

Results flagged for a closer look

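Of 66 groups of 4 or 8 animals examined for F3, THBD and the named genes, 6 held a value far from the others, and chance gives about 1 group in 20. THBD was 6.79 log2 in exercised 5, against 7.28 in the next of 8 exercised animals. THBD was 7.60 in exercised 2, against 7.31 in the next of 4 exercised females. KLF4 was 7.61 in exercised 1, against 7.97 in the next exercised animal. PLG was 5.15 in sedentary 6, against 4.94 in the next sedentary animal. ITGB3 was 5.73 in exercised 8, against 5.42 in the next exercised animal. CNN1 was 9.83 in sedentary 7, against 8.73 in the next sedentary animal.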

How the results depend on the processing

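Over the alternatives run, the training difference ran from 0.93 to 1.29 log2 for F3 and from -0.92 to -0.72 for THBD. The filters, trended eBayes, the replicate block and no sex term cannot move these values, which stayed at 1.08 and -0.82. Since the genes were chosen on this difference, the ranges are a description. Filters at the 40th and 60th percentiles of signal left 631 of 14361 and 77 of 9574 probe sets called for training. Without them 3197 of 23935 were called. Of listed genes 3 and 1 were called, against 11, and most of the 11 lay below the filters. Of those 3, TNF and EDN1 passed the lower filter only through their higher group. The values tested between the sexes changed sign without passing. The sex difference was 0.14 (F3) and 0.10 (THBD) with batch as a block and 0.17 and 0.14 in batch A. The F3 female minus male training difference was -0.096 with array weights and -0.35 with the replicate block, and 0.55 in batch A. With 1 animal left out, the sex difference ran from -0.24 to 0.14 (F3) and -0.12 to 0.081 (THBD), and the female minus male training difference from -0.33 to 0.39 and -0.16 to 0.24. Among uncalled genes, F2R turned to -0.064 with array weights, -0.031 with batch as a block, -0.10 in batch A and ran from -0.098 to 0.12 with 1 animal left out. In batch A PDIA3 was -0.028 and KRT18 0.088. With 1 animal left out, the r of F3 to THBD ran from -0.27 to 0.096 in exercised and from -0.305 to 0.215 in sedentary animals.

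Exercised and sedentary animals share replicate numbers, but same-numbered animals correlated at -0.033 to 0.386 in their deviations, above 0.1 in 5 of 8 pairs, and 1 of 8 exercised animals correlated best with its own number, so the numbers were not taken as pairs. With the replicate block 3528 probe sets and 14 listed genes were called, 10 of the latter shared with the 11 reported: PPBP was lost, and FLT1, AIF1, TCF21 and RYR2 were gained. In batch A KLF2 and PPBP were lost, and SERPINB2, EGR1, IL6, PECAM1 and EGFL7 were gained. IL1A was gained without sedentary 1 and IL1B without sedentary 8.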
